A study of Homo sapiens with 4 samples.

Results

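The miR-130, miR-301 and miR-454 family was described through 8 mature miRNAs out of 2656 in the deposited count table. They were chosen by name: hsa-miR-301a-3p, hsa-miR-301a-5p, hsa-miR-454-3p and hsa-miR-454-5p from hairpins in SKA2, hsa-miR-130b-3p, hsa-miR-130b-5p and hsa-miR-301b-3p from a chromosome 22 pair, and hsa-miR-130a-3p. Small RNA was sequenced from HEK293T cells, a human embryonic kidney line carrying the SV40 large T antigen, in 4 libraries. The 2 CAG libraries came from cells with a landing pad, a genomic site that accepts a transgene, under the CAG promoter, a synthetic enhancer and actin promoter element. The 2 PGK libraries came from cells with a landing pad under the PGK promoter of the phosphoglycerate kinase gene. All groups therefore carried a landing pad, and no parental HEK293T library was analysed here. The lines were monoclonal and the labels do not state how many clones were used, so effects of promoter and of clone cannot be told apart. Nothing in the labels says whether replicates were separate cultures, so p-values measure only the spread between these samples. The series asked which miRNAs differ between the lines with either promoter.

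A miRNA hairpin yields a 5p and a 3p mature strand, and the strand loaded into an Argonaute protein recognises targets mainly through its seed, bases 2 to 8 from its 5′ end. In this family the 3p strands share a seed and are the conserved strands, so they can address the same sites in 3′ untranslated regions. SKA2, the host of miR-301a and miR-454, encodes a spindle and kinetochore protein needed for chromosome segregation. Members of the family have been studied in blood vessels, in fat cell differentiation and in tumours.

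The mature 3p sequences are shown because they define the family, with the seed in capitals (RefSeq, GRCh38.p14).
miR-301a-3p: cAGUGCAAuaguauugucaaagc
miR-301b-3p: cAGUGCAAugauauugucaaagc
miR-130b-3p: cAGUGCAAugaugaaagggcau
miR-454-3p: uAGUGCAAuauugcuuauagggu
The first base lay outside the seed and was the only difference between miR-454-3p and the others up to the end of the seed. miR-301a-3p and miR-301b-3p were identical at 21 of 23 positions and differed by A10G and G11A, counted from the 5′ end and with the miR-301a-3p base first. Reads that cover these positions can tell them apart, but the sources used here do not state how the authors treated reads that fit several entries.

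The 5p sequences are shown because they held most of the reads of the family, again with bases 2 to 8 in capitals.
miR-130b-5p: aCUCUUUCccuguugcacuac
miR-301a-5p: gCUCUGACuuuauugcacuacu
miR-454-5p: aCCCUAUCaauauugucucugc
These seeds differed from each other and from the 3p seed. In the deposited family table the counts of seed CUCUGAC equalled the sum of miR-301a-5p and miR-301b-5p in every library, while CUCUUUC held the counts of miR-130b-5p alone and CCCUAUC those of miR-454-5p alone.

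GENCODE release 29 (GRCh38) places MIR301A at chromosome 17, 59151136 to 59151221, and MIR454 at chromosome 17, 59137758 to 59137872, both on the minus strand in introns of SKA2 and 13263 bases apart. MIR301B lies at chromosome 22, 21652981 to 21653058, in an intron of the noncoding transcript AP000553.1, and MIR130B lies 245 bases further on, at 21653304 to 21653385, overlapping an exon of that transcript, all on the plus strand. MIR130A lies at chromosome 11, 57641198 to 57641286, on the plus strand in an intron of the noncoding gene AP000662.1. The count table holds no coordinates, so positions were looked up by hairpin name, and the build used by the authors may differ.

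Library totals were 13780279 and 2845945 counts in CAG replicates 1 and 2, and 7927615 and 7331437 counts in PGK replicates 1 and 2. Levels are given as CPM after TMM scaling of the libraries, in which 1 read was worth 0.0777 to 0.324 CPM. Of 12 markers of blood, liver, muscle and neuronal cells, 3 had no read in any library (miR-223-3p, miR-208a-3p and miR-208b-3p). The summed level of the 12 was 2.56 and 2.27 CPM in CAG and 2.25 and 4.46 CPM in PGK libraries. The 4 miRNAs chosen as abundant in HEK293T averaged at least 20200 CPM each. The 12 left out miR-1-3p and miR-133a-3p, also of muscle and named here with their values known. miR-1-3p had 16.5 and 15.6 CPM in CAG libraries and 104 and 94.0 CPM in PGK libraries. miR-133a-3p had 4 and 0 reads in CAG libraries and 20 and 14 reads in PGK libraries. The 12 held miR-124-3p as the only neuronal marker. miR-128-3p and miR-129-5p, also of neurons, are named here with their values known. miR-128-3p had 14968 and 13940 CPM in CAG libraries and 12620 and 17788 CPM in PGK libraries. miR-129-5p had 291 and 255 CPM in CAG libraries and 167 and 150 CPM in PGK libraries. The 12 markers therefore do not show that muscle or neuronal miRNAs were absent.

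The family was present at moderate levels, and most of its reads came from the 5p strand of the chromosome 22 hairpin MIR130B. hsa-miR-130b-5p stood at 1368 and 1186 CPM in CAG replicates 1 and 2, and at 1382 and 2392 CPM in PGK replicates 1 and 2. It held 67.6% to 80.02% of the reads of the 8 members in each library and ranked 62 by mean level among the 773 miRNAs that passed the low-count filter. PGK replicate 2 stood apart from the other 3 libraries, and the groups were separated only by the small gap between CAG replicate 1 and PGK replicate 1. Levels of different miRNAs also carry the ligation preference of the library kit, so the order of members is less certain than the level of 1 miRNA between libraries.

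The seed-bearing 3p strands were led by miR-454-3p from the SKA2 intron. hsa-miR-454-3p had 300.5 and 197 CPM in CAG libraries and 303 and 232 CPM in PGK libraries. The groups overlapped, and CAG replicate 1 lay close to PGK replicate 1. hsa-miR-130b-3p, the seed strand of MIR130B, had 100.1 and 116 CPM in CAG libraries and 174 and 159 CPM in PGK libraries. Both CAG libraries were below both PGK libraries.

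Its partner on chromosome 22 was scarcer. hsa-miR-301b-3p had 18.6 and 8.43 CPM in CAG libraries and 20.4 and 21.8 CPM in PGK libraries. CAG replicate 2, the shallowest library, was the lowest and held 26 reads of it. hsa-miR-301a-3p, the seed strand of the other SKA2 hairpin, had 11.5 and 6.48 CPM in CAG libraries and 8.01 and 6.69 CPM in PGK libraries. It was the rarest tested member, its groups overlapped, and CAG replicate 2 held 20 reads.

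The remaining 5p strands lay between these. hsa-miR-301a-5p had 123 and 103 CPM in CAG libraries and 89.1 and 102 CPM in PGK libraries, with both CAG libraries above both PGK libraries by a margin of less than 1 CPM. hsa-miR-454-5p had 58.9 and 64.2 CPM in CAG libraries and 65.9 and 75.2 CPM in PGK libraries, with both CAG libraries lower. miR-301b-5p, the second strand of MIR301B, had 12.1 and 8.10 CPM in CAG libraries and 11.9 and 15.8 CPM in PGK libraries, which overlapped.

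miR-130a-3p was at the edge of detection. It had no read in either CAG library and 1 read in PGK replicate 1, with none in PGK replicate 2. A count of 0 allows up to 0.233 and 0.972 CPM in CAG replicates 1 and 2 and 0.418 CPM in PGK replicate 2 (3 counts; this limit covers counting error only, because PCR copies were not told apart by molecular identifiers). miR-130a-5p had no read in any library. No fold change is given for this hairpin. The entries miR-3666 and miR-4295, which carry the same seed, had no read either.

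In order of mean level over the libraries the members ran miR-130b-5p, miR-454-3p, miR-130b-3p, miR-301a-5p, miR-454-5p, miR-301b-3p, miR-301a-3p and miR-130a-3p. miR-454-3p was above miR-130b-3p in every library and miR-301b-3p above miR-301a-3p in every library. miR-130b-3p and miR-301a-5p were not separated, since miR-301a-5p was the higher in CAG replicate 1 and miR-130b-3p in the other 3 libraries.

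**Figure D1:**
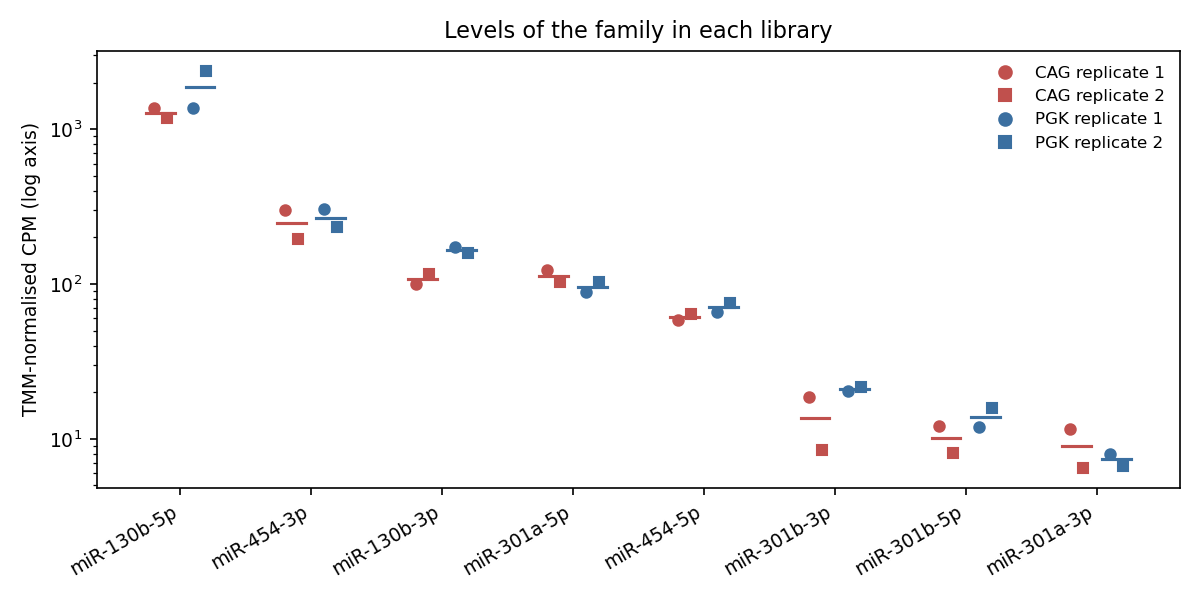
TMM-normalised CPM (log axis) of 7 members and of miR-301b-5p in each library, with CAG left of PGK and a short line at each group mean; miR-130a-3p, with a single read in all, is not drawn. miR-130b-5p is highest in every library, and PGK replicate 2 stands at 2392 CPM while the other 3 libraries stand between 1186 and 1382 CPM.

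In CAG cells 1 of the 7 tested members was lower than in PGK cells and none was higher, against a background of 6.08% of 773 tested miRNAs called lower and 8.15% called higher (adjusted p under 0.05 in edgeR's quasi-likelihood test). The 8th member, miR-130a-3p, did not pass the low-count filter. The called member was miR-130b-3p, which averaged 107.9 ± 11.04 CPM in CAG libraries and 167 ± 10.7 CPM in PGK libraries (SD, n = 2 each). It fell by 0.63 on the log2 scale (SE 0.19; edgeR adjusted p = 0.0476), to 0.644 of the PGK level. Without adjustment 2 members had a p under 0.05 in this test, beside 26.9% of all tested miRNAs. The call lay at the threshold: it was kept in 7 of 14 alternatives and lost when either PGK library or CAG replicate 1 was left out (edgeR adjusted p = 0.239, 0.233 and 0.191). It was also lost with the replicate number as a block (adjusted p = 0.0897), with library size scaling (0.0879), without a low-count filter (0.0891) and with a filter of 10 CPM (0.0521). The log2 fold change itself stayed between −0.73 and −0.52 in all 14.

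The other strand of the same hairpin, miR-130b-5p, averaged 1277 ± 129 CPM in CAG libraries and 1887 ± 714 CPM in PGK libraries (SD, n = 2 each), a log2 fold change of −0.56 (SE 0.25; edgeR adjusted p = 0.173). The PGK replicates differed 1.73-fold from each other, more than the group means did. Without PGK replicate 2 the log2 fold change was −0.12, and without CAG replicate 1 it was called at −0.66 (edgeR adjusted p = 0.0074). miR-301b-3p had a log2 fold change of −0.49 (SE 0.32; edgeR adjusted p = 0.341), and miR-301b-5p one of −0.36 (SE 0.30; edgeR adjusted p = 0.467). The CAG replicates of miR-301b-3p differed 2.21-fold, more than its group means did. Its log2 fold change was −1.31 when CAG replicate 1 was left out (edgeR adjusted p = 0.0645) and −0.17 when CAG replicate 2 was, and that of miR-301b-5p ran from −0.76 to −0.18 over the libraries left out. All 4 arms of the chromosome 22 pair thus had a negative fold change, of which 1 passed the test. Over all 773 tested miRNAs 50.2% were below 0 and 6.08% were called lower. Arms of a hairpin share a precursor and are not independent readings.

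The SKA2 arms had fold changes of both signs, and none passed the test. miR-454-3p averaged 249 ± 73.4 CPM in CAG libraries and 268 ± 50.6 CPM in PGK libraries (SD, n = 2 each), a log2 fold change of −0.10 (SE 0.24; edgeR adjusted p = 0.826). Its sign turned without PGK replicate 1 (0.09) and without CAG replicate 2 (0.17). miR-454-5p was at −0.20 (SE 0.20; adjusted p = 0.549, edgeR). miR-301a-5p was at 0.25 (SE 0.20; adjusted p = 0.446) and miR-301a-3p at 0.42 (SE 0.32; adjusted p = 0.428), both by the edgeR test, and miR-301a-3p turned to −0.18 without CAG replicate 1.

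Across the 7 tested members the median log2 fold change was −0.20, and 5 were below 0. Over all 773 tested miRNAs the median was −0.0042 and the middle 50% lay between −0.39 and 0.40. Both CAG libraries were below both PGK libraries for 4 of the 7 members and above them for 1, against 27.4% and 29.8% of all tested miRNAs.

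**Figure D2:**
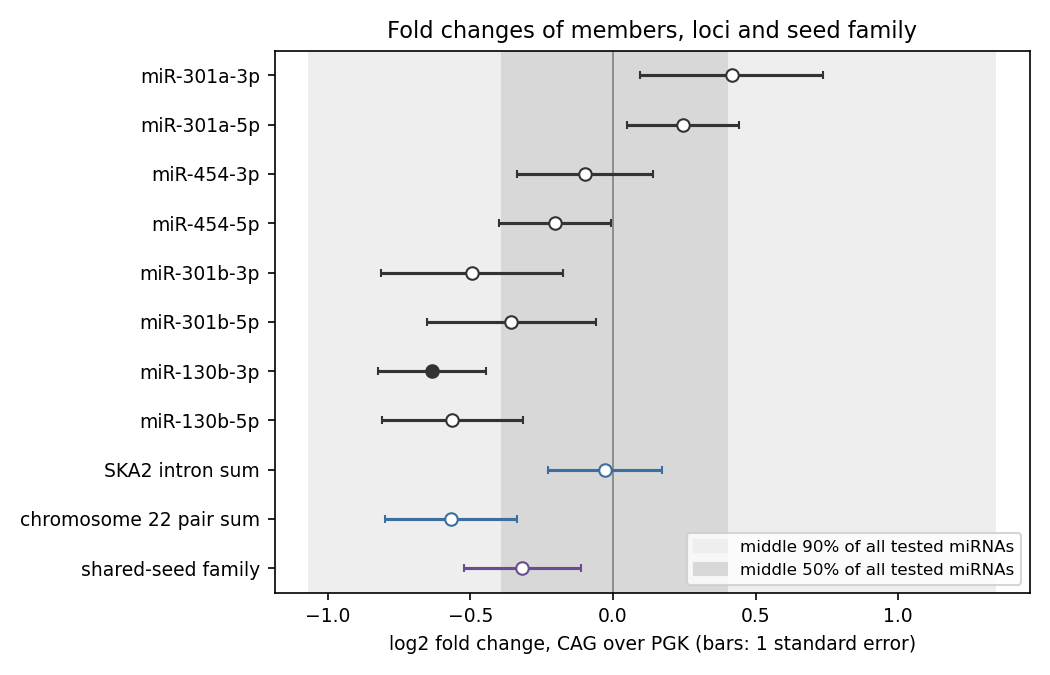
Log2 fold change of CAG over PGK with 1 standard error for 8 mature strands, for the summed loci and for the shared-seed family; a filled symbol marks an adjusted p under 0.05, and grey bands show the middle 50% and 90% of all tested miRNAs. miR-130b-3p, at −0.63, is the only filled symbol, and the chromosome 22 strands lie left of 0 while the SKA2 strands lie on both sides.

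Counts were next summed over each locus, to compare loci rather than strands. The chromosome 22 pair summed to 1499 and 1317 CPM in CAG libraries and 1588 and 2590 CPM in PGK libraries. The CAG libraries were lower, but PGK replicate 2 was again far above the other 3, since miR-130b-5p makes up most of this sum. Its log2 fold change was −0.57 (SE 0.23), which did not pass the test (edgeR adjusted p = 0.139; 14.2% of 767 rows called). It was called without CAG replicate 1 (−0.66, adjusted p = 0.0069) and was −0.18 without PGK replicate 2.

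The SKA2 hairpins summed to 494 and 370.0 CPM in CAG libraries and 466 and 416 CPM in PGK libraries, and the groups overlapped. The log2 fold change was −0.03 (SE 0.20; edgeR adjusted p = 0.935). Without PGK replicate 1 it was 0.04, and without CAG replicate 2 it was 0.17.

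The difference between the loci was read from their ratio within each library, where library scaling cancels. The chromosome 22 sum was 3.03 and 3.56 times the SKA2 sum in CAG libraries and 3.40 and 6.22 times in PGK libraries. The groups overlapped, and the log2 ratio differed by −0.49 (CAG minus PGK; exact two-sided permutation p = 0.667). It was −0.05 without PGK replicate 2 and −0.92 without PGK replicate 1. With 2 libraries against 2 the smallest p this exact permutation test allows is 0.333, so no ratio could pass. Of the 10 ratios compared, miR-301a over miR-454 kept its groups apart for both strands. Under random labels each ratio would keep its groups apart with a probability of 0.333, so this count says nothing particular about the pair. On the 3p side the ratio was 0.0382 and 0.0329 in CAG libraries and 0.0264 and 0.0289 in PGK libraries. The closest of these values, in replicate 2 of each group, rest on 20 miR-301a-3p reads in CAG and 48 in PGK. On the 5p side it was 2.09 and 1.60 in CAG libraries and 1.35 and 1.36 in PGK libraries. The log2 differences were 0.36 and 0.43, each with an exact permutation p of 0.333, and 1 after Benjamini-Hochberg adjustment over the 10 ratios.

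The reads with the shared seed AGUGCAA, as deposited in the family table, matched the summed 3p members to within 1 read in every library. They had 430 and 320 CPM in CAG libraries and 512 and 425 CPM in PGK libraries, so CAG replicate 1 lay just above PGK replicate 2. The log2 fold change was −0.32 (SE 0.21; edgeR adjusted p = 0.353), where 10.4% of 642 tested families were called.

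miR-454-3p supplied the larger part of these reads. The intervals given with the shares cover counting error only, and replicate libraries differed by more than that. Its share was 69.8% (95% exact interval 68.5 to 71.0) in CAG replicate 1 and 60.1% (57.004 to 63.1) in CAG replicate 2. In PGK replicates 1 and 2 its share was 59.9% (58.4 to 61.5) and 55.3% (53.5 to 57.1). miR-130b-3p supplied 23.2% (22.1 to 24.4) and 35.3% (32.4 to 38.4) in CAG replicates 1 and 2, and 34.4% (33.0 to 35.9) and 38.0% (36.2 to 39.7) in PGK replicates 1 and 2. CAG replicate 1 had the lowest miR-130b-3p share of the 4 libraries, whereas CAG replicate 2 lay within the PGK range. By group the share of miR-130b-3p was 29.3% ± 8.56 in CAG and 36.2% ± 2.49 in PGK cells (SD, n = 2 each), a difference smaller than the spread of the CAG pair. miR-301b-3p made up 2.57% to 5.18% and miR-301a-3p 1.58% to 2.67% over the 4 libraries.

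**Figure D3:**
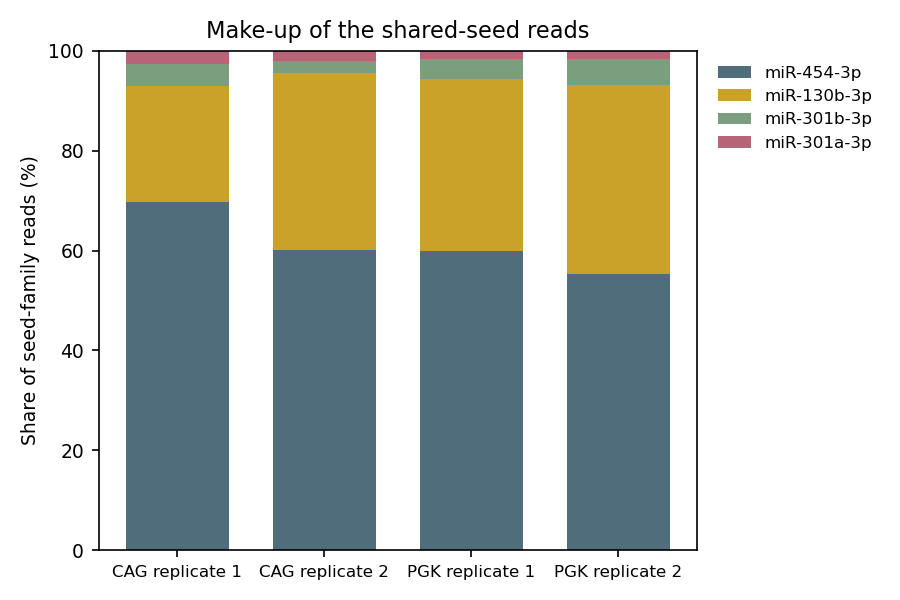
Share of the shared-seed reads taken by each 3p strand in each library (%, stacked to 100), with CAG libraries left of PGK libraries. miR-454-3p takes 55.3% to 69.8% and miR-130b-3p 23.2% to 38.0%, and CAG replicate 1 has the lowest miR-130b-3p share.

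The hairpins differed in which strand predominated. In MIR454 the seed-bearing 3p strand outnumbered the 5p strand 5.11-fold and 3.07-fold in CAG libraries and 4.60-fold and 3.09-fold in PGK libraries. In MIR301B the 3p strand was at 1.54 and 1.04 times the 5p strand in CAG libraries and at 1.72 and 1.38 times in PGK libraries. CAG replicate 2 held 26 reads of its 3p strand and 25 of its 5p strand, too few to say which predominated there. In MIR301A and MIR130B the order was turned round in every library, so the strand without the shared seed was the more abundant.

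The 5p count of MIR301A was 10.7 and 15.9 times its 3p count in CAG libraries and 11.1 and 15.3 times in PGK libraries. For MIR130B the 5p count was 13.7 and 10.2 times the 3p count in CAG libraries and 7.93 and 15.02 times in PGK libraries. Taken over the whole family, 5p reads outnumbered seed-bearing 3p reads 3.63-fold and 4.16-fold in CAG libraries and 3.06-fold and 6.16-fold in PGK libraries. Such a 5p excess was common in these libraries: of 178 hairpins with both strands tested, 92 had more 5p than 3p, and 60 of them by at least 8 times. Ligation preference of the kit differs between strands, and its part in these ratios was not tested.

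In each of the 4 hairpins the mean log2 strand ratio of the libraries differed between the groups by less than the larger SD of the replicate pairs. These mean 3p over 5p differences (CAG minus PGK) were 0.0016 for MIR301A, 0.070 for MIR454, −0.12 for MIR130B and −0.28 for MIR301B. The same differences as fitted for the strand test, a separate estimate, were 0.13 for MIR301A, 0.10 for MIR454, −0.07 for MIR130B and −0.16 for MIR301B. Each had an adjusted p = 0.961 (edgeR diffSpliceDGE). Over all hairpins 0% of 178 were called in this test, 18 had an unadjusted p under 0.05, and limma diffSplice called 0. In MIR301A, MIR454 and MIR301B, chosen after their values were seen, replicate 1 had the higher 3p over 5p ratio than replicate 2 in both groups. In MIR130B it was the lower in the CAG pair and the higher in the PGK pair. Replicate 1 was the higher in both groups for 20.2% of the 178 hairpins.

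**Figure D4:**
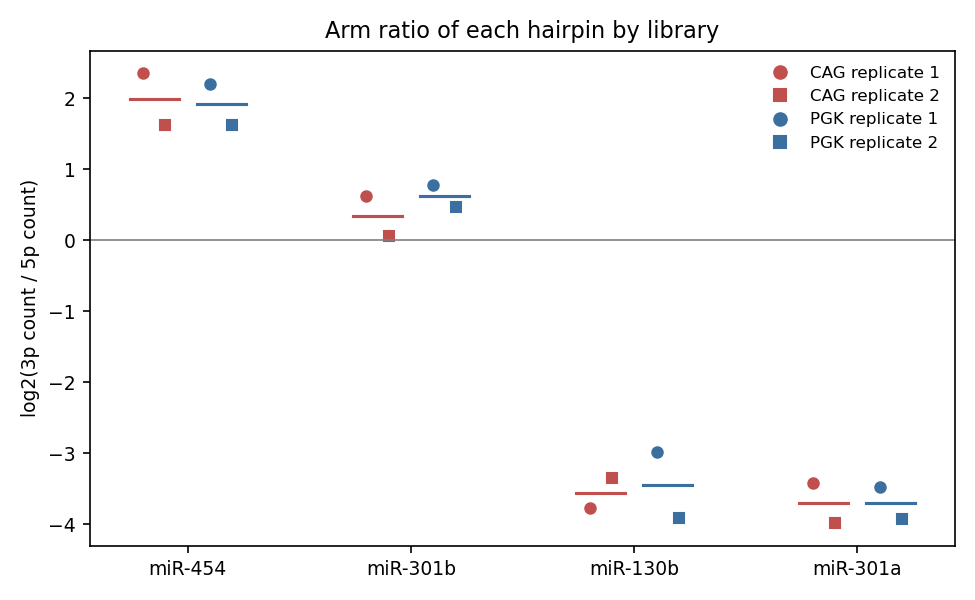
Log2 ratio of 3p to 5p counts for each hairpin and library, with CAG left of PGK, replicate 1 as circles, replicate 2 as squares and a short line at each group mean; values above 0 mean more 3p than 5p. miR-454 and miR-301b lie above 0 and miR-130b and miR-301a below it in every library, and the groups overlap in each hairpin. For miR-301b in CAG replicate 2 the value, 0.057, rests on 26 against 25 reads and is not distinct from 0.

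The seed of the family is shifted by 1 base from the seeds of other well-known miRNAs, so their sites can overlap in sequence. miR-19a-3p and miR-19b-3p, of the miR-17 oncogenic cluster and its X-linked relative, share GUGCAA with it, and miR-148a-3p, miR-148b-3p and miR-152-3p share AGUGCA.
miR-19a-3p: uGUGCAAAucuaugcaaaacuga
miR-148a-3p: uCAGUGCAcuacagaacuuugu
The capitals again mark bases 2 to 8. None of these 5 miRNAs was called in either direction by the edgeR test (1 at an unadjusted p under 0.05), and their median log2 fold change was −0.16, with 4 of 5 below 0. Over all tested miRNAs 6.08% were called lower, 8.15% were called higher, 26.9% had an unadjusted p under 0.05 and 50.2% were below 0, so these counts say nothing particular about the 5. miR-152-3p had 89.9 and 83.6 CPM in CAG libraries and 125 and 129 CPM in PGK libraries. Both CAG libraries were lower, at a log2 fold change of −0.54 (SE 0.19; edgeR adjusted p = 0.0792). miR-19a-3p was at −0.05 (SE 0.28), with 711 and 359 CPM in CAG libraries and 565 and 550 CPM in PGK libraries, and without CAG replicate 1 it was called at −0.63 (edgeR adjusted p = 0.0342).

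By level these groups were far apart. Reads with the miR-148 seed stood at 242645 and 179966 CPM in CAG libraries and 209748 and 206107 CPM in PGK libraries. Reads with the miR-19 seed stood at 1248 and 738 CPM in CAG libraries and 1182 and 1005 CPM in PGK libraries. The miR-130 seed, at a mean of 422 CPM, was the least abundant of these 3 seeds in every library.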

How the data were processed

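The authors deposited whole-number read counts for 2656 mature miRNAs and 2094 seed families in 4 libraries made with the NEBNext Small RNA kit, per the labels' protocols. The sources used here do not state the trimming, the aligner, the counting rule or the genome build. Groups and replicate numbers came from sample titles. Replicate pairs differed far beyond counting noise (chi-square per degree of freedom 125 for CAG and 66.1 for PGK), so no library was a second deposit of another; whether they were separate cultures is not settled by this.

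Counts were tested with edgeR 4.0.16 (R 4.3.3; quasi-likelihood, robust, TMM, minimum count 10 and total 15 by group, group as the only term), with Benjamini-Hochberg adjustment over all rows tested. Standard errors were taken from the log2 fold change and its F statistic. Strand ratios were tested with edgeR diffSpliceDGE on an older-method quasi-likelihood fit; single ratios by an exact permutation test. The scripts were tested on simulated data. As alternatives, libraries were scaled by RLE, the upper quartile or total counts, and the fit was repeated with other filters, DESeq2 1.42.0, limma 3.58.1, the older edgeR method, the replicate block, each library left out and the 5 most abundant miRNAs removed. Sequences are from RefSeq, which matched 15 of the 17 names looked up, among them 7 of the 8 members. The text names the members, their second arms, other entries of the seed, 5 offset-seed miRNAs and the 5 miRNAs (mean of at least 100 CPM) nearest to the summed 3p profile. Members and lists were chosen with earlier results of these data known.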

Additional observations from a re-analysis of the deposited data

How the results depend on the processing

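No tested member was called higher in any of 14 alternatives. The count of members called lower, 1, became 0 with library size scaling, without a low-count filter, with the 10 CPM filter and with the replicate block. Leaving out PGK replicate 1 or PGK replicate 2 lost the call, and leaving out CAG replicate 2 kept it with miR-130b-3p. Without CAG replicate 1 it moved from miR-130b-3p to miR-130b-5p. Over all miRNAs, 63 higher and 47 lower became 40 and 23 with the replicate block, and 39 higher with the 10 CPM filter; with a library left out they ran from 10 to 84 higher and 6 to 78 lower. Leaving out 1 library leaves a lone library that is assumed to vary like the other pair. Same-numbered libraries deviated together with a correlation of only 0.040 across 436 miRNAs, so the number was not taken as a pairing. The log2 fold change without each library ran from −0.25 to 0.17 for the SKA2 sum, −0.89 to −0.18 for the chromosome 22 sum and −0.56 to −0.14 for the seed family. It ran from −0.44 to 0.17 for miR-454-3p, −0.18 to 0.64 for miR-301a-3p, −0.63 to 0.36 for miR-19a-3p, −0.39 to 0.070 for miR-19b-3p and −0.14 to 0.27 for miR-148a-3p. Strand differences as fitted for the strand test (3p over 5p) ran from −0.29 to 0.37 for miR-301a, −0.31 to 0.43 for miR-454, −0.58 to 0.34 for miR-130b and −0.55 to 0.011 for miR-301b. In the strand test the replicate block called 1 hairpin (miR-548ay), and 0 to 2 were called with a library left out (miR-548ay and miR-548d, without PGK replicate 2); both were picked with their values known. The cause of these changes was not tested. Counts of 20 to 26 reads in CAG replicate 2 limit miR-301a-3p, miR-301b-3p and miR-301b-5p.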

Other observations

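Of 218 other miRNAs averaging 100 CPM or more, the 5 whose centred log2 profile over the 4 libraries lay nearest to that of the summed 3p members were miR-582-3p, miR-22-3p, miR-423-3p, miR-19b-3p and miR-423-5p. Their Euclidean distances were 0.0986 for miR-582-3p, 0.168 for miR-22-3p, 0.188 for miR-423-3p, 0.189 for miR-19b-3p and 0.194 for miR-423-5p, against a median of 0.612. miR-582-3p had 415 and 305 CPM in CAG libraries and 445 and 397 CPM in PGK libraries. None of the 5 was called by the edgeR test (adjusted p from 0.326 to 0.698), where 14.2% of all tested miRNAs were called. They were picked for likeness to a profile that was itself not called, so this outcome follows largely from the choice. A likeness over 4 libraries is a description only.

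Other miRNAs of the same chromosomes were counted for 653 of 773 tested miRNAs with a single chromosome in RefSeq. Over all 773, 8.15% were called higher, 6.08% lower and 50.2% were below 0. On chromosome 22, 0 of 22 others were called higher and 1 lower, with a median log2 fold change of −0.03 and 11 below 0. On chromosome 17, 2 of 49 were called higher and 3 lower, with a median of −0.12 and 27 below 0. On chromosome 11, where miR-130a lies, 2 of 30 were called higher and 4 lower, with a median of −0.32 and 21 below 0.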
